A study of Mus musculus with 3 samples.

Results

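The cytosolic ribosome is built from ribosomal RNA and a set of small basic proteins, each usually encoded in the mouse by a single expressed gene named *Rpl* for the large subunit or *Rps* for the small subunit. Of the curated RefSeq genes of the GRCm38 assembly, 89 carried such a symbol (*Rpl* or *Rps* and a digit, or *Rplp0*, *Rplp1*, *Rplp2* and *Rpsa*) once the *Rps6k* kinases and 10 pseudogenes were left out, among 21000 protein-coding genes. Each was searched for binding sites of NR2F2 (COUP-TFII), an orphan nuclear receptor of interstitial cells, within 1 kb of a transcription start site (TSS). Whole testes of E14.5 embryos of the outbred CD-1 stock, freed of the mesonephros, were profiled by ChIP-seq with 2 NR2F2 ChIP replicates, each from 18 μg of chromatin of 30 pooled testes, and 1 input library of the same stage that was not immunoprecipitated. The study describes the ChIP experiments as independent and the replicates as biological, without saying whether separate pools of testes were used, and p-values measure only the spread between these libraries.

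Ribosomal protein genes are among the most highly transcribed genes of growing cells. Their promoters are rich in CpG, often lack a TATA box and usually start transcription at a C inside a run of pyrimidines, which gives the mRNA the terminal oligopyrimidine (TOP) tract through which the mTOR pathway controls its translation. First introns are short and near the TSS, and many later introns carry small nucleolar RNAs (snoRNAs) that guide the modification of ribosomal RNA. NR2F2 recognizes the half-site AGGTCA or GGGTCA, alone or as a direct repeat.

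Sequence from the RefSeq GRCm38 genome, the assembly the files name mm10, is shown for 6 peaks around which the results turn: 5 with the most ChIP counts and, last, *Rpl27a*, which with *Rpl26* had the lowest ratio relative to the typical peak. The stretches run 5′ to 3′ on the strand of the gene and hold the longer parts of each 300 bp peak outside exons, without shorter pieces such as the intron end of the *Rps3a1* peak, except that the first is a stretch of 30 bases around a site in the 5′ UTR of *Rpl34* and is given on the strand of the site. Capitals mark the motifs that were searched: the extended half-site (AGAGGTCA or AGGGGTCA), the core half-site (AGGTCA or GGGTCA), the ETS core CCGGAAG and the GC box GGGCGG, on either strand.
Rpl34 site, chr3:130730355-130730384, + strand: cgggtgagttcAGGGGTCAagtgtgacggc
Rpl27 intron, chr11:101442457-101442597, + strand: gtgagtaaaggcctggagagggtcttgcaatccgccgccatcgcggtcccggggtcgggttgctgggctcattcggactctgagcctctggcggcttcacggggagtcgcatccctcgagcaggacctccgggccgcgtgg
Rps3a1 upstream, chr3:86142669-86142793, - strand: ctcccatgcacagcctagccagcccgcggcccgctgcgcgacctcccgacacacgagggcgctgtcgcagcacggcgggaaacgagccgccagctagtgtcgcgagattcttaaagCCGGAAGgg
Rpl11 intron, chr4:136053125-136053347, - strand: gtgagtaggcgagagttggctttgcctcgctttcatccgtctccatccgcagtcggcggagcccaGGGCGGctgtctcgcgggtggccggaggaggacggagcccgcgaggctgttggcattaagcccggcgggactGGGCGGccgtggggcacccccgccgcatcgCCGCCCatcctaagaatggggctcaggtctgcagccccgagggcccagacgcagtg
Rpl11 upstream, chr4:136053394-136053424, - strand: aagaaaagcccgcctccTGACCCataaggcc
Rpl15 upstream, chr14:18270987-18271127, - strand: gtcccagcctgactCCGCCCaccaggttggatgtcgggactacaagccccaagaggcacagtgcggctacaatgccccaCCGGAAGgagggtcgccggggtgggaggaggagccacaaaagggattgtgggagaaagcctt
Rpl27a intron, chr7:109519224-109519523, + strand: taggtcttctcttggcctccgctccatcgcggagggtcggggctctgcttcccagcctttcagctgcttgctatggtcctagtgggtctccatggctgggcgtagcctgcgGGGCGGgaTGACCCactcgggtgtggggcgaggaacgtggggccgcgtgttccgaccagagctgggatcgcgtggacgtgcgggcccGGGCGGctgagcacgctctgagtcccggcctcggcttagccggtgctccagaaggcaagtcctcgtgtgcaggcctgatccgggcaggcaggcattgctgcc
The *Rpl27* and *Rpl11* introns begin at their 5′ splice site. The *Rpl27* stretch holds none of the motifs, *Rps3a1* and *Rpl15* each hold 1 ETS core, and the half-site of *Rpl27a* lies beside a GC box.

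NR2F2 peaks were found at 48 of the 89 genes (53.9%), against 5894 of all 21000 protein-coding genes (28.1%). Each of the 48 had a single peak, and no peak was shared between members. The share was alike in other sets of genes for protein synthesis, with 42 of 78 genes for mitochondrial ribosomal proteins (53.8%) and 29 of 55 for translation factors (52.7%), and was lower in genes for proteasome subunits, at 13 of 40 (32.5%). These shares are descriptions, and no test was run between them. Expression was not measured in these libraries, so neither the activity of the genes nor the labelled tissue could be checked. Because whole testes were used, more cells with bound NR2F2 and more binding per cell cannot be told apart.

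**Figure D1:**
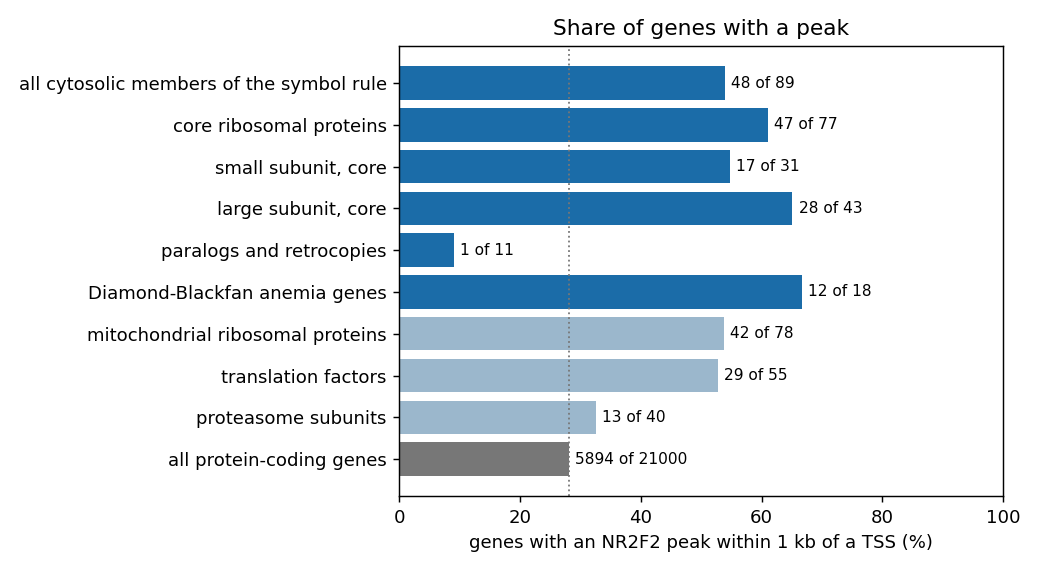
Share of genes with an NR2F2 peak within 1 kb of a TSS (x axis, %), for groups of cytosolic ribosomal protein genes (dark bars), 3 other gene sets (light bars) and all protein-coding genes (grey bar and dotted line). The core ribosomal proteins stand at 61.0% and the paralogs and retrocopies at 9.09%, with all protein-coding genes at 28.1%.

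Almost all bound members were core ribosomal proteins. Of 77 core genes 47 had a peak (61.0%). In the large subunit 28 of 43 were bound (65.1%), among them *Rpl3*, *Rpl4*, *Rpl5*, *Rpl7*, *Rpl7a*, *Rpl8*, *Rpl9*, *Rpl11*, *Rpl12*, *Rpl13*, *Rpl15*, *Rpl17*, *Rpl22*, *Rpl23*, *Rpl24*, *Rpl26*, *Rpl27*, *Rpl27a*, *Rpl28*, *Rpl29*, *Rpl30*, *Rpl31*, *Rpl34*, *Rpl35a*, *Rpl37*, *Rpl37a* and *Rpl38*. In the small subunit it was 17 of 31 (54.8%), among them *Rps3a1*, *Rps4x*, *Rps6*, *Rps7*, *Rps9*, *Rps12*, *Rps13*, *Rps14*, *Rps19*, *Rps20*, *Rps21*, *Rps27*, *Rps27a* and *Rps29*. Of the 3 proteins of the P stalk, which recruits translation factors to the ribosome, *Rplp0* and *Rplp2* had a peak and *Rplp1* had none.

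The paralogs and retrocopies differed in count from the core genes, with a peak at 1 of 11. *Rpl3l*, which is used in striated muscle, *Rpl10l* and *Rpl39l*, which are used in male germ cells after birth, and *Rpl7l1*, *Rpl22l1*, *Rpl32l*, *Rpl37rt*, *Rps23rg1*, *Rps27l* and *Rps27rt* had no peak. The exception was *Rpl36al*, and its peak lay 882 bp upstream of the TSS, with all 300 bases in exon sequence of the neighbouring *Mgat2*, a gene for a glycosyltransferase of the Golgi, whose TSS was nearer. *Rps19bp1*, which has a matching symbol but encodes a protein that binds RPS19, had no peak either. Reads from near-identical copies can be lost or misplaced on mapping, and the files give no mapping rate per site.

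The 30 core genes without a peak included *Rpl6*, *Rpl10*, *Rpl10a*, *Rpl13a*, *Rpl14*, *Rpl18*, *Rpl19*, *Rpl21*, *Rpl23a*, *Rpl32*, *Rpl35*, *Rpl36*, *Rpl36a*, *Rpl39*, *Rpl41*, *Rplp1*, *Rps2*, *Rps3*, *Rps10*, *Rps15*, *Rps15a*, *Rps16*, *Rps18*, *Rps23*, *Rps24*, *Rps25*, *Rps26*, *Rps28* and *Rpsa*. Counts were deposited at called peaks only, so the ChIP level at these promoters is not known. Of the 41 members without a peak, 11 had one within 10 kb of a TSS and 7 had none within 100 kb. The nearest was at 1608 bp, inside an intron near *Rpl41*, and held 8 input counts and 62 and 33 counts in ChIP replicates 1 and 2. The farthest was 1111463 bp from *Rpl10l*. *Rpl3l* and *Rps2*, which lie next to each other, had the same peak nearest, at 3429 and 4035 bp, with 5 input and 61 and 27 ChIP counts. *Rps25* was 10153 bp from a 5′ UTR peak of another gene with 10 input and 129 and 106 ChIP counts, so a peak of high count was near but outside the window.

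The share with a peak was also counted by function and by gene structure. Of 18 genes whose human counterparts are mutated in Diamond-Blackfan anemia, a failure of red cell formation, 12 had a peak (66.7%), among them *Rpl5*, *Rpl11*, *Rpl15*, *Rpl26*, *Rpl27*, *Rpl31*, *Rpl35a*, *Rps7*, *Rps19*, *Rps27* and *Rps29*. Members that host a snoRNA in an intron were bound at 18 of 30 (60.0%) and the others, which include every paralog and retrocopy, at 30 of 59 (50.8%). Among core genes alone the hosts stood at 60.0% and the others at 29 of 47 (61.7%), so the direction turned. Members with a protein-coding neighbour transcribed divergently had a peak at 8 of 12 (66.7%) and those without one at 40 of 77 (51.9%), and among core genes alone at 7 of 11 (63.6%) and 40 of 66 (60.6%). The splits over core genes were added after the data were seen. Over all protein-coding genes the same split gave 1049 of 1860 (56.4%) and 4845 of 19140 (25.3%), and no test was run on these shares, with few members in the group that has such a neighbour. On the X chromosome, 1 of 4 members was bound (*Rps4x*, not *Rpl10*, *Rpl36a* or *Rpl39*), and of 902 X-linked protein-coding genes 136 were (15.1%).

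At the 48 peaks the input held 4 to 17 counts, with a median of 9. ChIP replicate 1 held 22 to 196 counts with a median of 50.5, and ChIP replicate 2 held 23 to 174 with a median of 42. Every one of the 48 had more counts in either ChIP replicate than in the input, as the selection of peaks on the merged ChIP reads favors. All peaks are 300 bp long, so counts compare between genes without a correction for length. Summed over the replicates the median was 93 counts, against 73 at the 5654 peaks within 1 kb of a protein-coding TSS and 68 at all 10069 peaks. Of the 48, 22 (45.8%) were in the top quartile of all peaks by summed ChIP counts and 12 (25%) in the top decile, beside 28.7% and 11.3% of the promoter peaks. At genes for mitochondrial ribosomal proteins the median was 99 counts, with 53.5% of 43 peaks in the top quartile and 23.3% in the top decile. By ChIP counts, peaks of both kinds of ribosomal protein gene thus lay toward the upper part of the range. At 370 counts, the highest of the cytosolic members was still far under the 959 of the highest peak in the series. The median input was also higher, at 9 counts for cytosolic members and 8 for mitochondrial ones, beside 7 at promoter peaks and at all peaks. The ChIP counts alone therefore do not give the ratio of ChIP to input.

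**Figure D2:**
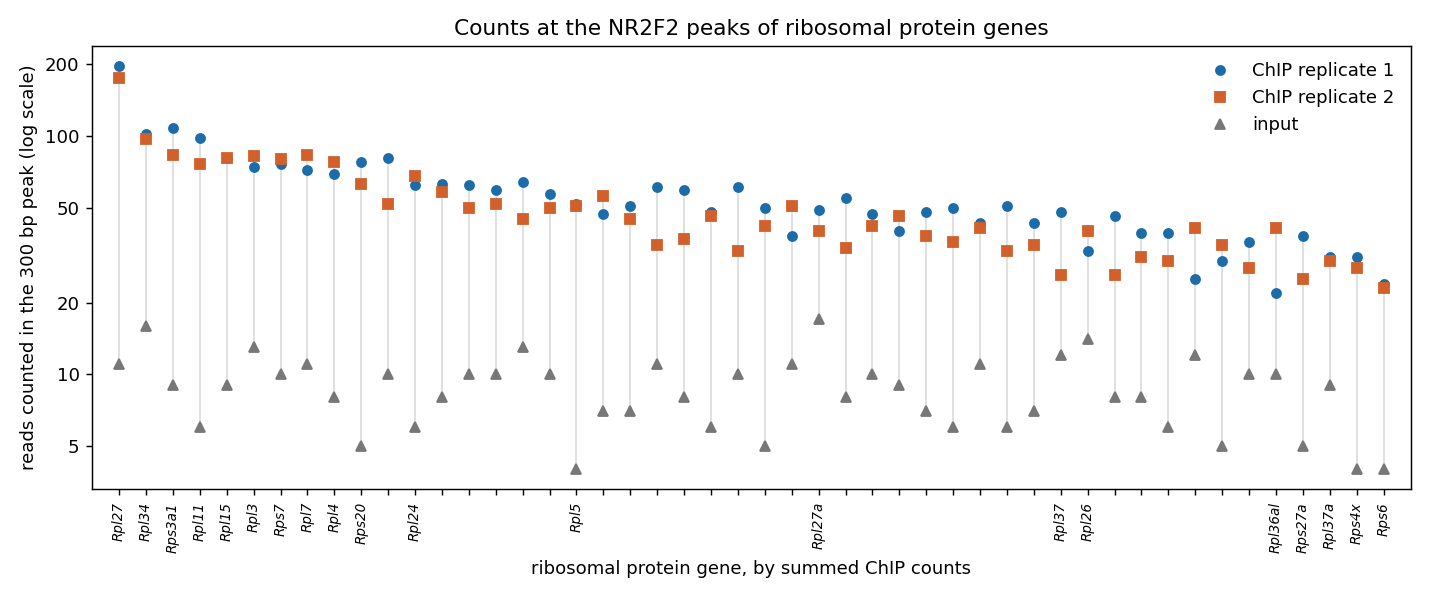
Reads counted in the 300 bp peak (y axis, log scale) for each of the 48 bound ribosomal protein genes (x axis, in order of summed ChIP counts, some named), with 1 point per library: circles and squares are the ChIP replicates and triangles the input. *Rpl27* stands at 196 and 174 ChIP counts, and the input stays between 4 and 17 in all of them.

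*Rpl27*, which encodes a large-subunit protein mutated in some families with Diamond-Blackfan anemia, had the most ChIP counts. Its peak at chr11:101442298-101442597, with the midpoint 202 bp downstream of the TSS in a 5′ UTR and an intron in its 3′ part, held 11 input counts and 196 and 174 ChIP counts. Both replicates were far above those of any other member. Relative to the typical peak in the edgeR fit its log2 ratio of ChIP to input was 1.75 ± 0.35 (SE), and it was the only one of the 48 called above the typical peak (2.08%), with an adjusted p of 0.00027 in the quasi-likelihood test of edgeR. Over all peaks 1.53% were called above, so the share among the members is near the background with this scaling. With DESeq2 size factors in edgeR it was 0.387% of all peaks and with no TMM 1.01%, and among the members 1 in each. Under the alternatives the adjusted p of *Rpl27* ran from 6.63e-05 to 0.0987, the last in DESeq2. DESeq2 called none of the 48 above, beside 0.218% of all peaks, and gave no adjusted p at 40 of the 48.

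5 further peaks had an unadjusted p under 0.05 and a ratio above the typical peak without passing the adjusted threshold. *Rpl11*, which with RPL5 and the 5S ribosomal RNA forms a particle that can bind MDM2, held 6 input counts and 98 and 76 ChIP counts, and its ratio stood 1.53 ± 0.52 (SE, log2) above the typical peak with an adjusted p of 0.119 in edgeR. *Rpl5*, its partner, held 4 input counts and 52 and 51 ChIP counts, with 1.36 ± 0.66 (SE, adjusted p of 0.437). Both partners had low input and replicates close to each other. *Rps20*, a protein of the head of the small subunit, held 5 input counts and 78 and 63 ChIP counts with 1.49 ± 0.58 (SE, adjusted p of 0.235). *Rps3a1*, an early contact of messenger RNA and initiation factors on the small subunit, held 9 input counts and 108 and 83 ChIP counts with 1.08 ± 0.45 (SE, adjusted p of 0.297). *Rpl24*, a protein at the interface of the subunits, held 6 input counts and 62 and 68 ChIP counts with 1.12 ± 0.56 (SE, adjusted p of 0.461). Their input counts ran from 4 to 9, at or under the median of 9 over the members. Counted with *Rpl27*, 6 of 48 peaks (12.5%) had an unadjusted p under 0.05 above the typical peak, beside 9.29% of the promoter peaks.

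High ChIP counts did not always come with a high ratio. *Rpl34*, a protein of the large subunit, had the second most ChIP counts, 102 and 97, but also 16 input counts, and its log2 ratio relative to the typical peak was 0.32 ± 0.38 (SE). *Rpl3*, which reaches toward the peptidyl transferase center, held 13 input counts and 74 and 82 ChIP counts, with 0.27 ± 0.43 (SE). *Rpl15*, a core protein of the large subunit, held 9 input counts and 81 in each ChIP replicate, with 0.85 ± 0.47 (SE). None of these 3 passed the test against the typical peak (adjusted p of 0.883, 0.918 and 0.553 in edgeR). *Rps7*, a small-subunit protein, held 10 input counts and 76 and 80 ChIP counts. *Rpl7* held 11 and 72 and 83, and *Rpl4*, which lines the exit tunnel of the nascent chain, held 8 and 69 and 78. In these last genes replicate 2 had the higher raw count, although replicate 1 had the larger total over all peaks.

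No member was called below the typical peak in edgeR or in DESeq2, where 0.0497% of all peaks were in edgeR, and 1 of 48 (2.08%), *Rpl27a*, had an unadjusted p under 0.05 in that direction, beside 1.57% of the promoter peaks and 2.55% of all peaks. *Rpl27a*, a protein of the large subunit whose gene hosts snoRNA sequence, held 17 input counts, the most of any member, and 49 and 40 ChIP counts, and its log2 ratio against the typical peak was -0.93 ± 0.44 (SE). *Rpl26*, a protein beside the exit tunnel, held 14 input counts and 33 and 40 ChIP counts, with -0.93 ± 0.48 (SE). *Rpl37* held 12 input counts and 48 and 26 ChIP counts. These low ratios stood at peaks with 10 or more input counts. The fewest ChIP counts were at *Rps6*, the classic substrate of the S6 kinases, with 4 input counts and 24 and 23 ChIP counts, at *Rps4x* with 4 and 31 and 28, at *Rpl37a* with 9 and 31 and 30, and at *Rps27a*, made as a fusion to ubiquitin, with 5 and 38 and 25, whose sum of 63 *Rpl36al* shared. Their log2 ratios relative to the typical peak were 0.24, 0.56, -0.55 and 0.33, all within the members' range.

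As a group the members' median ratio was above that of the promoter peaks in both replicates, with no test run on it. The members' median log2 ratio of ChIP to input counts, with 0.5 added to each, was 2.62 in replicate 1 and 2.32 in replicate 2 (mean 2.47 ± 0.21, SD, n = 2), that of promoter peaks 2.46 and 2.20 (2.33 ± 0.19), and that of all peaks 2.35 and 2.13 (2.24 ± 0.15). Translation factor genes (2.55 and 2.32) and mitochondrial ribosomal protein genes (2.49 and 2.28) were also above the promoter peaks. Proteasome subunit genes, at 2.14 and 1.78, were below them. Replicate 1 had the higher median in each of these sets, and both replicates were set against the same input. The ratio relative to the typical peak was above 0 at 32 of 48 peaks (66.7%), beside 56.3% of promoter peaks, and ran from -0.93 to 1.75. Small-subunit and large-subunit peaks had like medians in it, 0.26 (17 peaks) and 0.27 (31 peaks, P stalk and *Rpl36al* included).

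**Figure D3:**
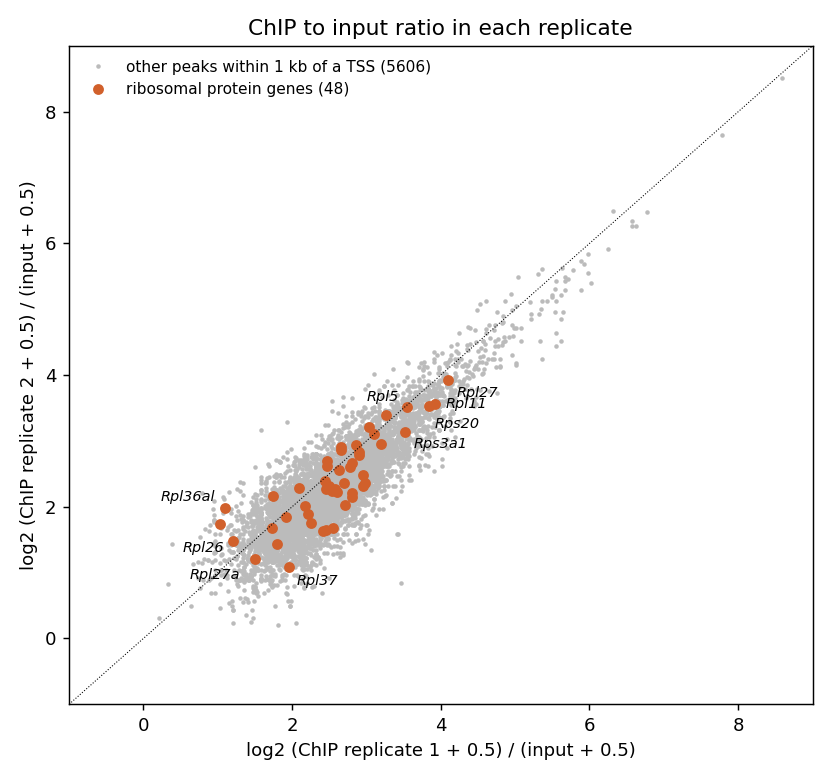
Log2 ratio of ChIP to input counts, 0.5 added to each, in replicate 1 (x axis) and replicate 2 (y axis) for the 48 ribosomal protein gene peaks (large points, some named) and the other peaks within 1 kb of a protein-coding TSS (grey). The dotted line marks equal ratios. *Rpl27* is at 4.09 and 3.92, and *Rpl36al* sits on the other side of the line from *Rpl37*.

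Across the 48 peaks, which share their libraries, the ChIP counts of the replicates had a Spearman rho of 0.738, beside 0.819 at promoter peaks and 0.818 at all peaks. Pearson r of log2 counts with 1 added was 0.794, beside 0.832 and 0.822. No peak of the 48 differed between them in the exact binomial test after adjustment, where 0.0993% of all peaks did. At an unadjusted p under 0.05 it was 4 (8.33%), beside 8.83% of all peaks. The lowest p of the 48 was at *Rpl36al*, with 22 counts in replicate 1 and 41 in replicate 2 (exact p of 0.00332). The share of summed counts at peaks served as the expectation, and the test compares libraries, not conditions. Without replicate 2 the log2 ratio of *Rpl36al* relative to the typical peak was -1.26, from -0.65 with both.

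Most peaks of ribosomal protein genes covered the TSS or lay just downstream of it. The peak overlapped the TSS at 29 of 48 members (60.4%), beside 38.3% of the 6276 pairs of a protein-coding gene and a peak within 1 kb. This was not particular to them, as overlap stood at 9 of 14 pairs for proteasome subunits (64.3%). It was 51.2% for mitochondrial ribosomal proteins and 44.8% for translation factors. The midpoint was downstream of the TSS at 35 members (72.9%, beside 60.2%) and between 0 and 300 bp downstream at 30 (62.5%, beside 41.0%). Its median offset was 99 bp downstream, with an interquartile range of -10 to 182 bp, while over all pairs the median was 72 bp and the range from -162 to 230 bp. The interquartile range was narrower among the members, and no test was run on it.

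**Figure D4:**
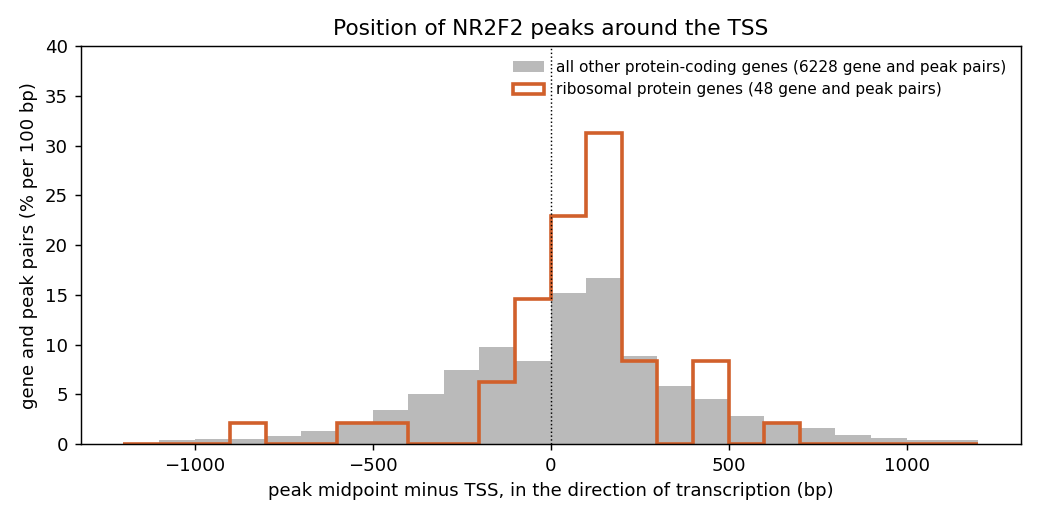
Distance of the peak midpoint from the nearest TSS of the gene (x axis, bp, positive in the direction of transcription) as a share of gene and peak pairs in bins of 100 bp (y axis, %), for the 48 ribosomal protein genes (line) and other protein-coding genes (filled). The members pile up just downstream of the TSS, with 62.5% between 0 and 300 bp.

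Within the gene, the midpoint was in an intron at 20 members, and at 18 of these in the first. It was in the 5′ UTR at 13, in a coding exon at 1 (*Rps7*, 490 bp downstream of the TSS), in an exon at 1 (*Rps27*) where only a non-coding transcript has it and outside the gene at 13. *Rpl15* (3 bp downstream) and *Rpl34* (14 bp downstream) were among those with the midpoint nearest to a TSS, and *Rpl36al* (882 bp upstream) and *Rpl4* (511 bp upstream) among those with it farthest. Of the 300 bases a median of 89 were exonic, and 5 peaks had none. The ratio relative to the typical peak had a median of 0.30 at the 35 peaks centered downstream and 0.15 at the 13 centered upstream.

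Another protein-coding gene had a TSS within 1 kb of the peak at 10 of the 48 members. In 6 cases the nearest TSS of any gene was not that of the member: *Zwilch* at the *Rpl4* peak, *Lias* at *Rpl9*, *Mgat2* at *Rpl36al*, *Clhc1* at *Rps27a*, the microRNA gene *Mir3091* at *Rps21* and the snoRNA gene *Snord58b* at *Rpl17*. Which of the neighbours a peak belongs to cannot be told apart from its position. The 10 shared peaks had a median of 97.5 summed ChIP counts and the 38 others 91.5.

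The sequence under the peaks held few sites of the extended type AGAGGTCA or AGGGGTCA. Such a site was found at 1 of 48 members (2.08%), beside 6.07% of promoter peaks and 10.5% of all peaks, searched on both strands. The 95% Wilson interval of the members' share ran from 0.369% to 10.9% and held both of these shares, so no difference is read from it. It was at *Rpl34*, in the stretch shown above, 47 bp from the middle of the peak. The core half-site AGGTCA or GGGTCA, which is also contained in every extended site, was in 21 member peaks (43.8%), beside 47.8% of promoter peaks and 58.9% of all peaks. The direct repeat with 1 base between the half-sites was in none of the 48, beside 0.884% and 2.37%. Of the other motifs, the ETS core CCGGAAG was in 14 (29.2%, beside 16.1% of promoter peaks), the YY1 motif AAGATGGC in 4 (8.33%, beside 4.67%), the GC box GGGCGG, bound by SP factors, in 31 (64.6%, beside 57.9%), the E-box CACGTG in 8 (16.7%, beside 11%), CCAAT in 6 (12.5%, beside 24.4%) and the NRF1 motif in 1 (2.08%, beside 2.92%). A match describes the letters and is not a measured site. The GC content of the members' peaks had a median of 63.3%, beside 65.3% of promoter peaks.

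**Figure D5:**
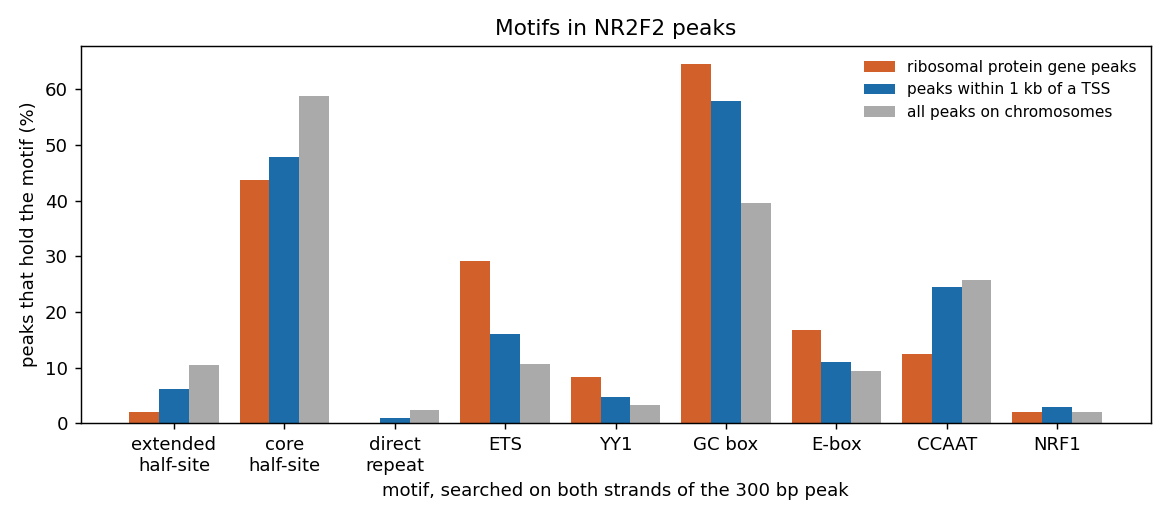
Share of peaks that hold each motif on either strand (y axis, %) for the ribosomal protein gene peaks, the peaks within 1 kb of a protein-coding TSS and all peaks on chromosomes. The extended half-site runs from 2.08% of the member peaks to 10.5% of all peaks, and the ETS core from 29.2% to 10.6%.

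Promoters with and without a peak were then compared over the same window, from 250 bases before to 50 after every curated TSS. The windows of the 89 members numbered 105 and those of all protein-coding genes 26242. The ETS core was in 36.8% of the windows of bound members and 33.3% of those of unbound members, beside 11.4% of all windows, and the start with a C and 4 pyrimidines in 15.8% and 16.7%, beside 2.25%. Both features were present at like shares in members with and without a peak. Over all bound and unbound genes the ETS core was in 18.6% and 8.4% of the windows, and the pyrimidine start in 2.38% and 2.19%. The core half-site was in 23 of 57 windows of bound members (40.4%, 17 of 48 genes) and in 9 of 48 windows of unbound ones (18.8%, 8 of 41 genes), beside 27.6% and 24.7% of the windows of all bound and unbound genes. The GC box was in 64.9% and 47.9%, beside 65.3% and 39.8% of the windows of all bound and unbound genes. The extended half-site was in 3 of 57 windows of bound members (5.26%, 2 of 48 genes). In unbound members it was in 3 of 48 windows (6.25%, 2 of 41 genes). Over all bound and unbound genes it was in 2.51% and 1.96% of the windows (182 of 5894 and 349 of 15106 genes). With so few members holding the site, no difference from the background is read from these shares. The members with such a window were *Rpl22*, *Rpl34*, *Rpl37rt* and *Rpl3l*, of which the first pair had a peak and the last pair had none. Windows of 1 gene can overlap, so they are not independent.

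Genes that work with the ribosome but fall outside the symbol rule gave shares in the same range. Of the ribosomal proteins with other names, *Rack1*, a scaffold on the small subunit, had a peak with 14 input counts and 64 and 50 ChIP counts, and *Fau*, made as a fusion to a ubiquitin-like protein, had none. Of 16 other genes with TOP mRNAs, 11 had a peak (68.8%): *Btf3*, *Eef1b2*, *Eef1d*, *Eef1g*, *Eif3e*, *Eif4b*, *Hnrnpa1*, *Naca*, *Nap1l1*, *Pabpc1* and *Tpt1*. Among them *Eef1b2*, an exchange factor for the elongation factor that brings aminoacyl-tRNA, held 8 input counts and 143 and 133 ChIP counts with a log2 ratio of 1.79 relative to the typical peak, and passed the test (adjusted p of 0.00339 in edgeR). *Naca*, a chaperone at the ribosome exit, held 9 input counts and 120 and 101 ChIP counts with 1.30 (adjusted p of 0.108 in edgeR). *Eef1b2* was the only gene of these lists whose peak was called, where 1.53% of all peaks were called above the typical peak. Ribosome assembly genes had a peak at 12 of 21 (57.1%), among them *Ncl* with 4 input counts and 86 and 44 ChIP counts. Regulators of ribosomal protein synthesis had one at 8 of 16, among them *Larp1*, whose product binds TOP mRNAs, with 6 input counts and 38 and 30 ChIP counts, while *Mtor* and *Myc* had none.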

How the data were processed

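NR2F2 ChIP-seq was performed on whole testes of E14.5 CD-1 embryos (2 ChIP replicates, 1 input). Per the labels and the study's methods, the authors trimmed single-end reads with Trim Galore 0.6.7, mapped them to mm10 with Bowtie2, kept mapping quality of at least 5, removed duplicates with Picard 1.110, merged the ChIP replicates, called peaks with HOMER 4.11.1 and set them to 300 bp. The deposited values are raw read counts per peak in each library. The rule that assigned reads to peaks is not stated in the sources used. Counts at peaks summed to 73251 (input), 426784 and 364261 (ChIP). These sums are not depths, so ratios are read relative to other peaks, and the input, at a median of 7 counts per peak, limits their precision.

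A peak belonged to a gene when its nearer edge was within 1 kb of a TSS of a curated RefSeq transcript (GRCm38, 45756 transcripts of 26180 genes). Counts at all 10069 peaks were tested with edgeR 4.0.16 (glmQLFit and glmQLFTest, TMM factors on counts at peaks, 3 libraries, R 4.3.3), which asks whether a peak lies above or below the typical peak, with Benjamini-Hochberg adjusted p under 0.05. The single input was assumed to vary like the ChIP replicates. Replicates were compared with a two-sided exact binomial test. DESeq2 1.42.0, other scalings, distances and filters were alternatives, and the count tests were tested on simulated data. Motifs were searched on both strands, and the 5 peaks on unplaced contigs were left out there. Python 3.11.15 with pandas 2.3.3, scipy 1.17.1 and numpy 2.4.6 gave the other values, and matplotlib 3.10.9 the figures.

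Members, gene lists and tests were chosen with earlier results of these data known. Named in detail were members called by a test, the 8 peaks with the most and the 4 with the fewest ChIP counts, the 5 highest and 5 lowest ratios, those with an extended half-site or direct repeat, and the 3 nearest to and 3 farthest from a TSS. The positions of *Rps27*, the neighbours and the genes outside the symbol rule were named after their values were seen, as were *Rpl37rt* and *Rps23rg1* added to the paralogs, and the stretch around the *Rpl34* site was chosen after its position was seen. Bases of the 2 bound members on chromosome 18 are not printed, and some genes that the counts include are not reported here by name.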

Additional observations from a re-analysis of the deposited data

How the results depend on the processing

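The share of ribosomal protein genes with a peak was 37.1% (19.1% of all protein-coding genes) when a peak had to overlap a TSS or lie up to 1 kb upstream, since peaks that lie wholly downstream of the TSS then fell away. Under the other definitions of distance, peak, transcript and member it stayed between 47.2% and 61.0%. The number of members above the typical peak was 1 under every scaling and filter in edgeR and 0 in DESeq2, which gave no adjusted p at 40 of the 48 peaks. The median log2 ratio of ChIP to input counts was 2.0 with 5 added to each count (1.79 at promoter peaks), 2.22 at the 21 peaks with at least 10 input counts (1.98), and 2.32 to 2.62 with either ChIP replicate left out. The share of peaks with the extended half-site was 0% within the central 100 bp (2.49% of promoter peaks), and the core half-site gave 43.8% (47.8%). Of the 22 peaks described singly, 1 (*Rpl27*) lost its call, with DESeq2, 1 (*Rpl36al*) moved by more than its standard error without replicate 2, and none reversed. No paired analysis was possible because both ChIP replicates share 1 input library, whose label carries no number. With 4 to 17 input counts at a peak, a ratio of a single gene is known only coarsely, and the ChIP level at promoters without a called peak is not known.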
